A study of Homo sapiens with 24 samples.

Results

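The genes described here are 10 genes of bile acid synthesis and of the FXR pathway that restrains it: CYP7A1, CYP27A1, AKR1D1, SLC27A5, BAAT, SLC51B, NR1H4, NR0B2, FGFR4 and FGF19. They were chosen as a pathway, with earlier results of these data known, and found in the count table by Entrez gene ID. Of the 10, 9 were among the 11927 gene features of the table and FGF19 was not. After the filter on low counts 7 of them were among the 11152 genes tested, while CYP7A1 and BAAT were too low to be tested.

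Hepatocytes make bile acids from cholesterol. The classic pathway starts with CYP7A1, the rate-limiting 7-alpha-hydroxylase, and the alternative pathway with CYP27A1, a mitochondrial sterol 27-hydroxylase. Bile acids are the ligands of FXR (gene NR1H4), a nuclear receptor that raises NR0B2 (the repressor SHP) in liver and FGF19 in intestine. FGF19 acts on hepatocytes through the receptor FGFR4 and its co-receptor KLB, and both branches repress CYP7A1.

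The RNA came from HepG2, an established human liver cancer line, carrying a lentiviral Cas9 construct and puromycin resistance in every group. The guide was sgCtrl, which cuts the AAVS1 site, or sgKEAP1-1 or sgKEAP1-2, which target KEAP1, the adaptor through which NRF2 is degraded. The sources do not say that the cells were a single clone. Each population was transfected with a non-targeting pool (siNC) or with pools against the lysosomal transcription factors TFEB and TFE3 (siTFEB/siTFE3), and RNA was taken 72 hours later. The 6 groups of guide and siRNA hold 4 libraries each, 24 in all. The 4 libraries of a group carry 4 different name prefixes, each shared by the libraries of 1 replicate number across all 6 groups, and what a prefix stands for is not stated. Nothing states that libraries of a group came from separate cultures, so p-values measure the spread between these libraries, which may be technical.

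Total reads per library ranged from 3527000 to 4600951. Levels are in CPM, the gene's reads relative to the library size scaled by TMM, and differences are log2 fold changes with standard errors from limma-voom. "Higher" and "lower" below mean a Benjamini-Hochberg adjusted p under 0.05 over all genes tested in that comparison. KEAP1 RNA was 77.5 to 93.6 CPM in the sgCtrl libraries under siNC, 48.1 to 59.2 with sgKEAP1-1 and 72.1 to 81.0 with sgKEAP1-2. With sgKEAP1-1 it was lower, at a log2 difference of -0.66 (limma-voom adjusted p = 0.000102), whereas with sgKEAP1-2 the difference of -0.14 did not pass (adjusted p = 0.448). Under siTFEB/siTFE3 the KEAP1 ranges were 84.1 to 85.95, 49.0 to 63.5 and 69.7 to 90.6 CPM. NQO1 and GCLM, well-known NRF2 targets, were higher with both guides under both siRNAs, by 1.19 to 1.48 and 1.79 to 2.17 log2 units. Knockdown changed TFEB by -1.96, -2.15 and -1.67 log2 units with sgCtrl, sgKEAP1-1 and sgKEAP1-2, of which the first did not pass (limma-voom adjusted p = 0.0858, 0.013 and 0.0419). TFE3 fell in all 3 backgrounds, by 1.57, 1.74 and 1.69 on the log2 scale. A pair of libraries, replicate 1 of sgKEAP1-1 under siNC and replicate 1 of sgKEAP1-2 under siTFEB/siTFE3, stood apart on the second principal component, which held 11.7% of the variance. Counts of called genes without them are given where they changed.

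**Figure D1:**
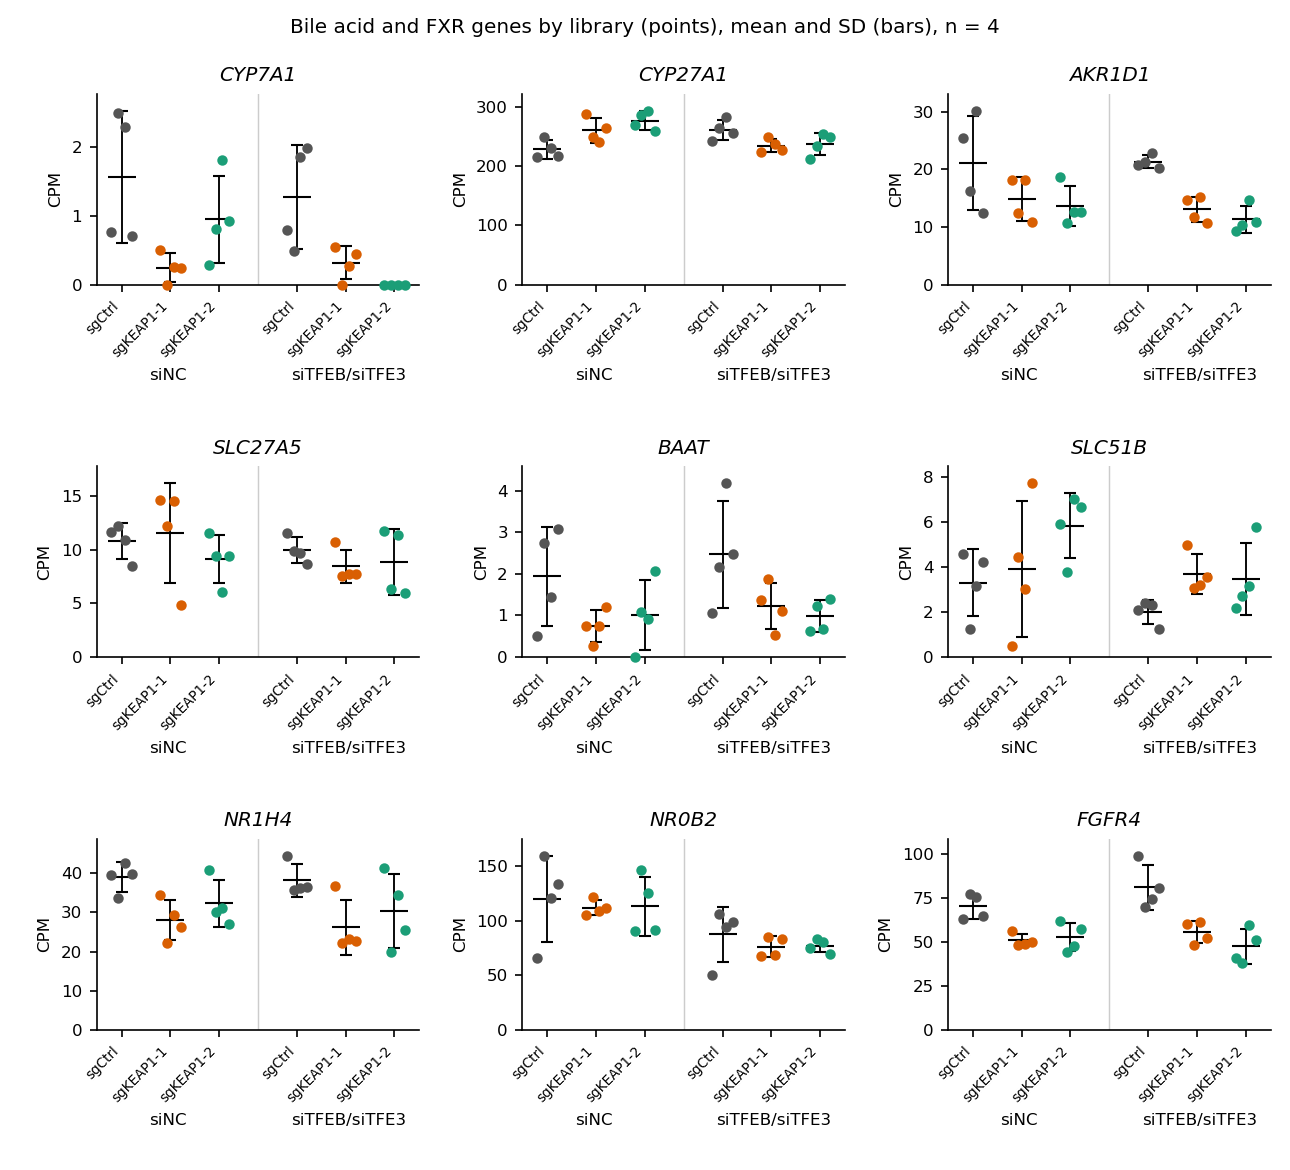
CPM of the 9 genes present in the table (vertical axes from 0, scaled per gene) in each of the 24 libraries, with the mean and SD of each group of 4. FGFR4 separates all sgCtrl libraries from all KEAP1 libraries under the same siRNA, AKR1D1 does so under siTFEB/siTFE3, and CYP7A1 is at 0 in all 4 libraries of sgKEAP1-2 under siTFEB/siTFE3.

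Among the 10 genes, FGFR4 and AKR1D1 were lower with KEAP1 guides and CYP27A1 was higher in a single comparison. The 250 bases before the RefSeq transcription start of these 3 genes are shown so that the upstream sequence of the genes that moved can be read beside their values. They are given 5′ to 3′ on the coding strand, which is the plus strand in each case (RefSeq, GRCh38.p14), as chr5:177089300-177089549 for FGFR4, chr7:138076209-138076458 for AKR1D1 and chr2:218781897-218782146 for CYP27A1. For each gene 1 annotated start was used. The gene spans given below are from another annotation and build (GENCODE, GRCh37). A stretch shown here may therefore lie within the span of its gene rather than before it. Capitals mark a match to CACGTG, the E-box letters that MiT/TFE factors bind.
FGFR4: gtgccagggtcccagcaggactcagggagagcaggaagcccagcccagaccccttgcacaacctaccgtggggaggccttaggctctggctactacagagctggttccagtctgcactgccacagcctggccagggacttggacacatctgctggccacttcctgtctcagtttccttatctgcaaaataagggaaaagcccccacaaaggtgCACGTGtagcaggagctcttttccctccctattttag
AKR1D1: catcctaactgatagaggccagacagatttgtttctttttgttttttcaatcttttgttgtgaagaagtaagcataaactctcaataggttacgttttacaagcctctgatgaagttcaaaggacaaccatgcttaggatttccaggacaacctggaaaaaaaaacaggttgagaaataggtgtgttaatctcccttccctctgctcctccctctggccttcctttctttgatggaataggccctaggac
CYP27A1: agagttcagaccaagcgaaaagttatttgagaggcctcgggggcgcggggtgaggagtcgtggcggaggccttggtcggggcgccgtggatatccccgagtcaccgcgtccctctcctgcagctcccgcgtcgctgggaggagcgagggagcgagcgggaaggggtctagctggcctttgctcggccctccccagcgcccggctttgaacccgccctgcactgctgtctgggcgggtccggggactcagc
The 4 motifs searched on both strands were CACGTG, the antioxidant response element core TGACNNNGC bound by NRF2, the nuclear receptor half-site AGGTCA, and 2 facing copies of that half-site with 1 base between them, the inverted repeat that FXR binds, which contains AGGTCA. Promoters were matched for 7 of the 10 genes. CACGTG occurred in FGFR4 alone of these 7 and in 6.34% of all 35116 promoters searched. TGACNNNGC occurred in BAAT alone and in 10.9% of all promoters. AGGTCA occurred in NR1H4, BAAT and SLC51B and in 12.1% of all promoters. The exact letters of the inverted repeat occurred in 0 of all 35116 promoters, so their absence from these 7 says nothing about FXR sites. In BAAT the matches to TGACNNNGC and AGGTCA overlap.

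CYP7A1 was close to the limit of detection in every group, and its summed reads were fewer with each KEAP1 guide than with sgCtrl under the same siRNA. Its reads in the 4 libraries were 3, 10, 8 and 3 with sgCtrl under siNC, 2, 0, 1 and 1 with sgKEAP1-1, and 1, 3, 8 and 4 with sgKEAP1-2. Under siTFEB/siTFE3 they were 3, 2, 8 and 8 with sgCtrl, 2, 0, 1 and 2 with sgKEAP1-1, and 0 in all 4 libraries with sgKEAP1-2. All libraries of sgKEAP1-1 under siNC were thus below all sgCtrl libraries, while those of sgKEAP1-2 under siNC overlapped them. The separation rested on 2 reads against 3, and 6.47% of all genes tested had all 4 libraries below sgCtrl in that comparison. With sgKEAP1-2 under siTFEB/siTFE3 the libraries were also all below those of sgCtrl, at 0 reads against 2 or more, beside 9.24% of all genes tested. CYP7A1 itself was not among the genes tested. Summed over a group, the reads under siNC were 24 (95% exact Poisson interval 15.4 to 35.7) for sgCtrl, 4 (1.09 to 10.2) for sgKEAP1-1 and 16 (9.15 to 26.0) for sgKEAP1-2. Under siTFEB/siTFE3 they were 21 (13 to 32.1), 5 (1.62 to 11.7) and 0 (0 to 3.69). These intervals cover counting error only. CYP7A1 did not pass the filter, and in the same limma-voom fit without the filter its adjusted p was 0.067 for sgKEAP1-1 and 0.604 for sgKEAP1-2 under siNC, and 0.134 and 0.00639 under siTFEB/siTFE3. The last of these passed, in a fit chosen to hold the genes that the filter removes.

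CYP27A1 was higher with sgKEAP1-2 under siNC, and no other KEAP1 difference of this gene passed. The gene lies on chromosome 2 from 219646472 to 219680016 (plus strand, GRCh37). Under siNC its CPM values were 215, 249, 230 and 217 with sgCtrl, 287, 248, 240 and 264 with sgKEAP1-1, and 268, 286, 293 and 259 with sgKEAP1-2. All libraries of sgKEAP1-2 were above all sgCtrl libraries, as in 11% of all genes tested, while sgKEAP1-1 overlapped sgCtrl. For sgKEAP1-2 the difference was 0.28 ± 0.086 log2 units (SE, n = 4 per group, limma-voom adjusted p = 0.0268), and CYP27A1 with FGFR4 made 2 of 7 tested genes called, against 14.7% of all genes in this comparison (7.58% higher, 7.14% lower). With sgKEAP1-1 it was 0.19 ± 0.086 (adjusted p = 0.183). The call with sgKEAP1-2 was lost when replicate 1, 3 or 4 of sgCtrl or replicate 2 or 3 of sgKEAP1-2 under siNC was left out (adjusted p = 0.055 to 0.0947).

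Under siTFEB/siTFE3 CYP27A1 was at 241, 264, 282 and 256 CPM with sgCtrl, 223, 248, 238 and 226 with sgKEAP1-1, and 211, 233, 254 and 249 with sgKEAP1-2. The groups overlapped, and the differences from sgCtrl were -0.16 ± 0.086 and -0.14 ± 0.086 log2 units (limma-voom adjusted p = 0.299 and 0.282). The interaction, the KEAP1 difference under siTFEB/siTFE3 minus that under siNC, was -0.35 (95% interval -0.60 to -0.10) for sgKEAP1-1 and -0.42 (-0.67 to -0.17) for sgKEAP1-2. CYP27A1 was the only 1 of the 7 genes with an unadjusted p under 0.05 for either interaction, at 0.00864 and 0.00192 in limma-voom, beside 304 and 454 of all 11152 genes. Adjusted over all genes these were 1.0 and 0.991, and 0% of all genes were called in either interaction, so a difference between the siRNAs was not established for this or any of the 7. With edgeR and with DESeq2 0 of the 7 were called as well.

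AKR1D1, the 5-beta-reductase that fixes the bent shape of the bile acid ring system, was lower with both KEAP1 guides under siTFEB/siTFE3. It spans 137687070 to 137803051 on chromosome 7 (plus strand, GRCh37). Under siTFEB/siTFE3 the sgCtrl libraries were at 20.8, 21.2, 22.9 and 20.3 CPM, those of sgKEAP1-1 at 14.6, 11.8, 15.2 and 10.6, and those of sgKEAP1-2 at 9.28, 10.3, 14.8 and 10.9. Neither KEAP1 group overlapped sgCtrl, as was so for 8.11% and 9.24% of all genes with libraries below those of sgCtrl. The difference was -0.73 ± 0.234 log2 units for sgKEAP1-1 (SE, limma-voom adjusted p = 0.0435). For sgKEAP1-2 it was -0.91 ± 0.243 log2 units (limma-voom adjusted p = 0.00781). Together with FGFR4 this made 2 of the 7 genes lower with each guide, against 4.81% of all genes lower (5.69% higher, 10.5% in either direction) with sgKEAP1-1 and 9.59% (10.6% higher, 20.2% in either direction) with sgKEAP1-2. The call with sgKEAP1-2 held without any 1 of the 24 libraries (adjusted p at most 0.0246). The call with sgKEAP1-1 was lost without any 1 of 11 libraries (adjusted p = 0.0507 to 0.152): all 4 of sgCtrl and of sgKEAP1-1 and replicate 4 of sgKEAP1-2 under siTFEB/siTFE3, and replicates 3 and 4 of sgKEAP1-2 under siNC. It was also lost in edgeR's quasi-likelihood test, at an adjusted p of 0.0529.

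Under siNC the sgCtrl libraries of AKR1D1 spread more widely, at 25.4, 16.2, 30.1 and 12.5 CPM. Those of sgKEAP1-1 were at 18.1, 12.5, 18.1 and 10.8, and those of sgKEAP1-2 at 18.6, 10.8, 12.7 and 12.7. The groups overlapped, with differences of -0.42 ± 0.233 and -0.55 ± 0.236 log2 units (SE, limma-voom adjusted p = 0.286 and 0.126). Without replicate 4 of sgCtrl under siNC, the lowest of its group, the second difference was -0.78 and passed (adjusted p = 0.0214). That difference also passed in a fit with a term for the replicate number. The interactions of -0.31 ± 0.330 and -0.36 ± 0.339 did not pass (adjusted p = 1.0 and 0.991), so the 2 siRNA conditions were not shown to differ for AKR1D1.

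SLC27A5 and BAAT carry out the last step, in which bile acids are activated to CoA esters and joined to glycine or taurine. SLC27A5, the bile acyl-CoA synthetase, ranged over all libraries from 4.82 to 14.6 CPM, and all 6 groups overlapped their neighbours in the order of means. Its differences with the KEAP1 guides were -0.03 and -0.28 log2 units under siNC and -0.25 and -0.24 under siTFEB/siTFE3, with 95% intervals that all included 0 (the lowest bound -0.88, the highest 0.56). Exons of ZNF446 on the other strand overlap the last 500 bases of SLC27A5, and as the strand setting of the counting was not stated, reads of the 2 genes cannot be told apart. BAAT, the conjugating enzyme, gave 31, 12 and 17 reads over the 4 libraries of sgCtrl, sgKEAP1-1 and sgKEAP1-2 under siNC. Under siTFEB/siTFE3 it gave 41, 20 and 16. The libraries of sgCtrl and of the KEAP1 guides overlapped in all 4 comparisons, and without the filter the adjusted p values of limma-voom were 0.205 to 0.414.

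**Figure D2:**
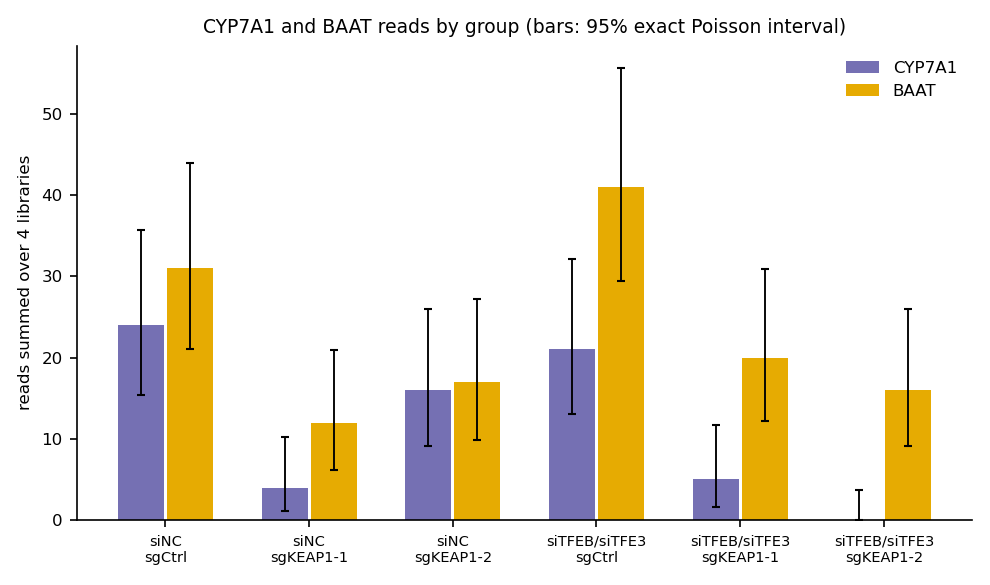
Reads of CYP7A1 and BAAT, the 2 genes too low to be tested, summed over the 4 libraries of each group, with 95% exact Poisson intervals that cover counting error only. The sgCtrl bars are the tallest under each siRNA for both genes, and CYP7A1 has 0 reads with sgKEAP1-2 under siTFEB/siTFE3.

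SLC51B, the beta subunit of the basolateral exporter OST and a known FXR target, had few reads, 2 to 32 per library. Under siTFEB/siTFE3 all libraries of sgKEAP1-1 (4.97, 3.06, 3.21 and 3.54 CPM) were above all of sgCtrl (2.11, 2.41, 2.32 and 1.24), a pattern that 9.06% of all genes tested showed. The log2 fold change of 0.83 ± 0.557 did not pass (limma-voom adjusted p = 0.424). With sgKEAP1-2 it was 0.92 ± 0.468 under siNC (adjusted p = 0.211) and 0.72 ± 0.569 under siTFEB/siTFE3 (adjusted p = 0.415). With sgKEAP1-1 under siNC, where single libraries ran from 0.504 to 7.71 CPM, it was -0.10 with an interval of -1.21 to 1.02. Exons of RASL12 on the other strand overlap the last 500 bases of SLC51B.

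NR1H4, which encodes FXR, had a mean level below that of sgCtrl in all 4 KEAP1 groups. None of the differences passed in the main fit. That fit used all 24 libraries and the main filter on low counts, without library weights or a replicate block. NR1H4 lies on chromosome 12 from 100867486 to 100958192 (plus strand, GRCh37). Under siNC its CPM values were 39.6, 33.7, 42.8 and 39.9 with sgCtrl, 34.5, 22.2, 29.4 and 26.3 with sgKEAP1-1, and 40.9, 30.1, 31.2 and 26.9 with sgKEAP1-2. Under siTFEB/siTFE3 they were 44.5, 35.7, 36.1 and 36.4, then 36.7, 22.1, 23.3 and 22.8, then 41.5, 19.9, 34.5 and 25.5. In each of the 4 KEAP1 groups 3 of 4 libraries were below every sgCtrl library of the same siRNA, and replicate 1 was the highest of its group. The share of all genes with this pattern was not counted. Both guides were set against the same sgCtrl libraries under each siRNA. The differences were -0.48 ± 0.189 and -0.29 ± 0.184 log2 units under siNC (SE, limma-voom adjusted p = 0.116 and 0.341) and -0.58 ± 0.190 and -0.39 ± 0.186 under siTFEB/siTFE3 (adjusted p = 0.0515 and 0.145). The third of these lay next to the threshold and passed when any 1 of 7 libraries was left out, with the lowest adjusted p, 0.0143, without replicate 1 of sgKEAP1-1 under siTFEB/siTFE3. The other 6 were replicates 1 and 2 of sgKEAP1-1 and replicate 1 of sgKEAP1-2 under siNC, and replicates 1, 2 and 3 of sgKEAP1-2 under siTFEB/siTFE3. With sgKEAP1-2 under siTFEB/siTFE3 the difference passed without replicate 1 of sgKEAP1-2 under siTFEB/siTFE3 (adjusted p = 0.0423). Without all 6 libraries numbered 1 the differences were -0.57, -0.39, -0.67 and -0.47 in the same order (adjusted p = 0.0197, 0.0924, 0.00636 and 0.0358). Without the pair of libraries that stood apart, those of sgKEAP1-1 under siNC and of both guides under siTFEB/siTFE3 also passed (adjusted p = 0.0324, 0.0163 and 0.0282). These same 3 passed with library quality weights (adjusted p = 0.018, 0.0088 and 0.0367). For sgKEAP1-1 under siTFEB/siTFE3 the adjusted p was 0.0214 in a fit of its 2 groups alone, 0.0482 with a filter at a mean of 10 counts, 0.0803 in edgeR and 0.0544 in DESeq2.

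NR0B2, the repressor SHP and a target of FXR, did not follow the KEAP1 guides but had lower means after knockdown. It lies on chromosome 1 from 27237980 to 27240466 (minus strand, GRCh37). Under siNC it was at 65.5, 159, 121 and 133 CPM with sgCtrl, 105, 122, 109 and 112 with sgKEAP1-1, and 90.6, 146, 125 and 91.1 with sgKEAP1-2. Under siTFEB/siTFE3 it was at 50.0, 106, 94.3 and 98.4, then 67.4, 84.9, 68.2 and 83.4, then 74.9, 82.9, 80.0 and 69.3. With both KEAP1 guides all libraries after knockdown were below all libraries under siNC, whereas the sgCtrl groups overlapped. The knockdown differences were -0.44 ± 0.217, -0.56 ± 0.220 and -0.53 ± 0.220 log2 units with sgCtrl, sgKEAP1-1 and sgKEAP1-2 (SE, limma-voom adjusted p = 1.0, 0.503 and 0.362), and none passed. Without all 6 libraries numbered 1 the difference with sgKEAP1-2 was -0.62 and passed (adjusted p = 0.0273), and the other 2 did not (adjusted p = 0.338 and 0.12). That exclusion was chosen after seeing the data. The KEAP1 differences of NR0B2 lay between -0.15 and -0.03 with both guides under both siRNAs, with intervals from -0.61 to 0.41.

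After knockdown of TFEB and TFE3, 0 of the 7 genes were called in limma-voom in any guide background. All genes called were 0.0179% with sgCtrl, 0.0897% with sgKEAP1-1 (0.0717% lower) and 0.359% with sgKEAP1-2 (0.0986% higher, 0.26% lower), so few genes of any kind passed in these comparisons. At an unadjusted p under 0.05 there was 1 gene with sgCtrl (CYP27A1), 1 with sgKEAP1-1 (NR0B2) and 2 with sgKEAP1-2 (CYP27A1 and NR0B2), and edgeR and DESeq2 called 0 in each. Of all 11152 genes 516, 901 and 1169 had such a p in these comparisons. CYP27A1 differed by 0.20 (95% interval 0.02 to 0.37) with sgCtrl, -0.15 (-0.33 to 0.03) with sgKEAP1-1 and -0.22 (-0.40 to -0.05) with sgKEAP1-2. NR0B2 with sgKEAP1-1, and CYP27A1 and NR0B2 with sgKEAP1-2, had all 4 libraries below those under siNC, as 2.87% and 3.19% of all genes had in these comparisons (2.14% and 2.53% above). With sgCtrl none of the 7 did, beside 1.75% of all genes below and 1.69% above.

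FGFR4 gave the most regular result of the 10 genes: it was lower with each KEAP1 guide under each siRNA, with no overlap between the 4 KEAP1 and the 4 sgCtrl libraries in any of the 4 comparisons. The share of all genes with all 4 libraries below sgCtrl was 6.47% (7.67% above) and 9.28% for sgKEAP1-1 and sgKEAP1-2 under siNC and 8.11% and 9.24% under siTFEB/siTFE3. Both guides were set against the same sgCtrl libraries under each siRNA, so the 4 comparisons are not independent. The share of all genes with this pattern in all 4 was not counted. FGFR4 lies on chromosome 5 from 176513906 to 176525145 (plus strand, GRCh37). Under siNC the sgCtrl libraries were at 63.2, 77.0, 75.8 and 64.9 CPM. Those of sgKEAP1-1 were at 56.5, 48.1, 49.0 and 49.7, and those of sgKEAP1-2 at 61.8, 44.4, 47.7 and 57.1. The gap to sgCtrl was narrow for replicate 1 of sgKEAP1-2, at 61.8 against 63.2. Under siTFEB/siTFE3 the sgCtrl libraries were at 98.9, 69.8, 74.6 and 80.8 CPM, those of sgKEAP1-1 at 59.9, 48.4, 61.5 and 52.0, and those of sgKEAP1-2 at 40.5, 38.1, 59.7 and 51.2. In the order of group means, only the step from sgCtrl under siNC (70.2 ± 7.19, SD) to sgKEAP1-1 under siTFEB/siTFE3 (55.5 ± 6.27) parted groups that did not overlap.

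Under siNC the FGFR4 difference was -0.46 ± 0.142 log2 units for sgKEAP1-1 (SE, limma-voom adjusted p = 0.0336) and -0.42 ± 0.141 for sgKEAP1-2 (adjusted p = 0.044). With sgKEAP1-1 it was the 1 gene of the 7 called, against 10.9% of all genes (4.91% lower, 6.01% higher). Under siTFEB/siTFE3 it was -0.54 ± 0.138 for sgKEAP1-1 (limma-voom adjusted p = 0.00948). For sgKEAP1-2 it was -0.77 ± 0.141 (limma-voom adjusted p = 0.000235). The last call held without any 1 of the 24 libraries (adjusted p at most 0.00209). The call with sgKEAP1-1 under siTFEB/siTFE3 was lost without replicate 2 of that group (adjusted p = 0.0538). Under siNC the call with sgKEAP1-1 was lost without replicate 2 or 3 of sgCtrl or replicate 2, 3 or 4 of sgKEAP1-1 (adjusted p = 0.083 to 0.109). The call with sgKEAP1-2 under siNC was lost without any 1 of 16 libraries (adjusted p = 0.0505 to 0.167) and in edgeR's test (adjusted p = 0.0513). The 16 were replicates 2, 3 and 4 of all 3 groups under siNC and, under siTFEB/siTFE3, replicates 3 and 4 of sgCtrl, all 4 of sgKEAP1-1 and replicate 4 of sgKEAP1-2. No difference between the guides passed for the 7 genes, as 0 were called for sgKEAP1-2 against sgKEAP1-1 under siNC (0% of all genes) or under siTFEB/siTFE3 (0.00897%) in limma-voom, edgeR and DESeq2. At an unadjusted p under 0.05 there was 1 under siNC, SLC51B, and 0 under siTFEB/siTFE3, beside 598 and 856 of all 11152 genes. For FGFR4 the guides' difference was 0.04 (95% interval -0.26 to 0.34) under siNC and -0.23 (-0.53 to 0.07) under siTFEB/siTFE3. Its interactions were -0.08 ± 0.197 and -0.35 ± 0.199 (SE, adjusted p = 1.0 and 0.991).

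**Figure D3:**
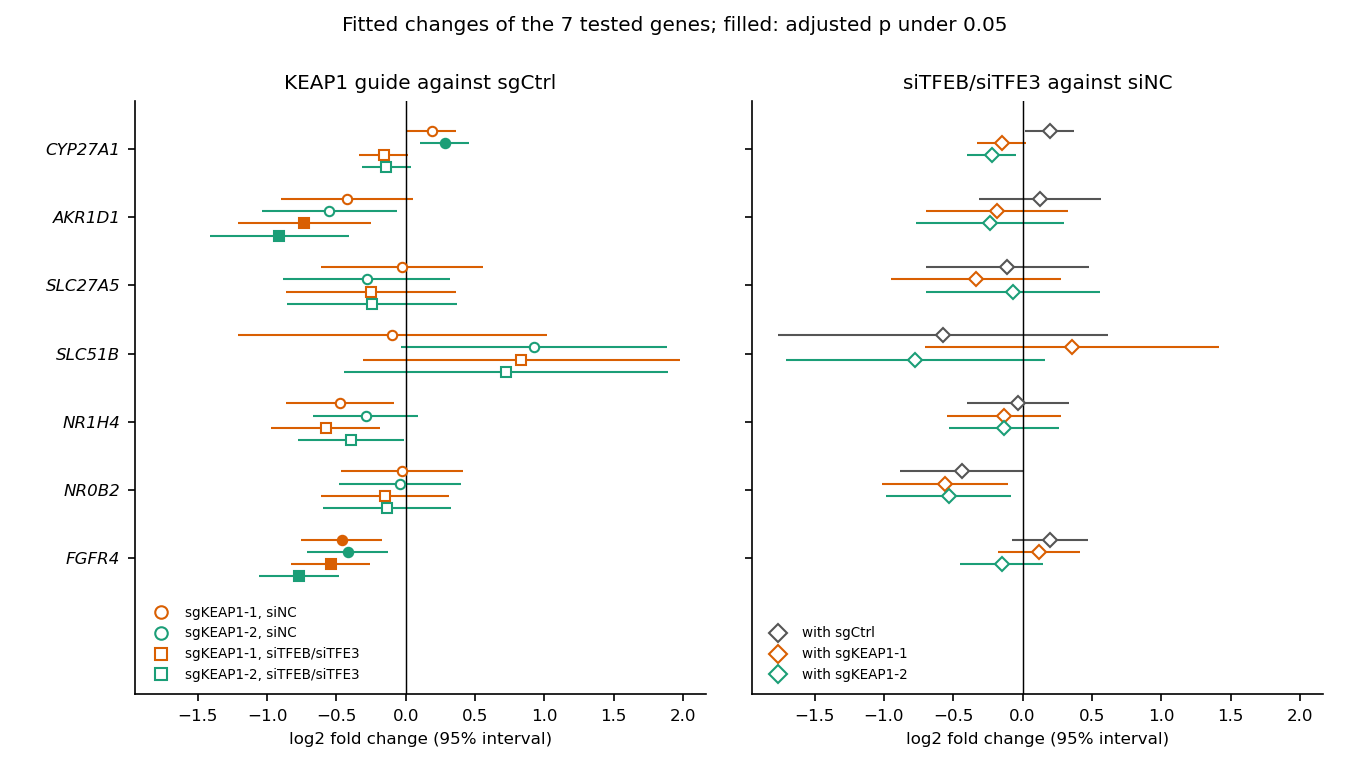
Log2 fold changes of the 7 tested genes with 95% intervals, for each KEAP1 guide against sgCtrl (left) and for siTFEB/siTFE3 against siNC in each guide background (right), where filled symbols have a limma-voom adjusted p under 0.05. FGFR4 is filled in all 4 KEAP1 comparisons, AKR1D1 in both under siTFEB/siTFE3 and CYP27A1 in 1, and no symbol is filled on the right.

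HepG2 cells expressed the liver's defining genes, and 5 of 8 of these were lower in all 4 KEAP1 comparisons. Of all genes tested 4.91% and 7.14% were lower with sgKEAP1-1 and sgKEAP1-2 under siNC, and 4.81% and 9.59% under siTFEB/siTFE3. In the same order 6.01%, 7.58%, 5.69% and 10.6% were higher. All 8 hepatocyte markers (ALB, APOA1, APOB, TTR, SERPINA1, TF, FGB and AFP) were measured, and ALB, APOA1, TF, FGB and AFP were lower with both guides under both siRNAs, while APOB, TTR and SERPINA1 passed in none of the 4 comparisons. Their summed level was 25312 to 34209 CPM in the sgCtrl libraries under siNC, 16025 to 17360 with sgKEAP1-1 and 14974 to 15935 with sgKEAP1-2. Under siTFEB/siTFE3 it was 23275 to 31968, 16160 to 17166 and 12831 to 19276. The median change of the 8 markers was -0.59 and -0.55 log2 units under siNC and -0.65 and -0.69 under siTFEB/siTFE3. Of 5 bile duct markers 3 were measured, and KRT19 was higher in all 4 comparisons (1.20 to 1.47 log2 units), SOX9 was lower in 3 (-0.42 and -0.41 under siNC, -0.32 with sgKEAP1-2 under siTFEB/siTFE3) and EPCAM passed in none. KRT7 and CFTR were absent, and the summed level was 708 to 903 CPM in the sgCtrl libraries and 891 to 1379 in those with KEAP1 guides. Of 6 stromal, endothelial and immune markers PDGFRB and CD68 were measured, at 3.94 to 13.6 CPM in sum, PDGFRB was lower with sgKEAP1-1 under siTFEB/siTFE3 (-1.48), and COL1A2, PECAM1, VWF and PTPRC were absent. Of 4 enterocyte markers CDX2 and SI were absent, and VIL1 and FABP2 summed to 211 to 285 CPM in the sgCtrl libraries and 156 to 224 with KEAP1 guides, VIL1 being lower in all 4 comparisons (-0.41 to -0.35). The part of these markers in the results for FGFR4 and AKR1D1 was not tested. In bulk RNA, fewer cells expressing a gene and less of its RNA per cell cannot be told apart.

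The wider pathway was read from a list of 52 further genes, of which 38 were in the table and 37 were tested. In the 4 KEAP1 comparisons 3, 5, 3 and 3 of the 37 were higher and 9, 6, 8 and 10 lower, in the order sgKEAP1-1 and sgKEAP1-2 under siNC, then under siTFEB/siTFE3. Of all genes tested 6.01%, 7.58%, 5.69% and 10.6% were higher and 4.91%, 7.14%, 4.81% and 9.59% lower. The median log2 fold change of the list was -0.17, -0.11, -0.25 and -0.22, beside -0.02, -0.00, 0.00 and 0.01 over all genes tested. The list was drawn up with results of these libraries known, so its counts are a description.

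Of the co-receptor and regulators, 12 of 15 were tested. KLB, the co-receptor through which FGF19 reaches FGFR4, was lower in all 4 comparisons, from a mean of 185 ± 25.8 CPM (SD, n = 4) with sgCtrl to 88.9 ± 16.1 with sgKEAP1-1 and 96.3 ± 3.68 with sgKEAP1-2 under siNC. Under siTFEB/siTFE3 the means were 159 ± 18.6, 68.0 ± 8.61 and 72.9 ± 15.9 CPM. The falls of KLB were 1.06 and 0.93, then 1.23 and 1.15 on the log2 scale (limma-voom adjusted p between 9.4e-07 and 1.76e-05). RXRA, the partner with which FXR binds DNA, was lower in 3 of the 4 (-0.59 with sgKEAP1-2 under siNC, -0.56 and -0.76 under siTFEB/siTFE3). HNF4A, a master regulator of hepatocyte genes, was lower in 3 (-0.38 with sgKEAP1-1 under siNC, -0.54 and -0.62 under siTFEB/siTFE3) and lay next to the threshold in the fourth (adjusted p = 0.0502). PPARA was lower with sgKEAP1-1 under siTFEB/siTFE3 (-0.52). MAFG, a small Maf protein that pairs with NRF2 and also represses bile acid synthesis genes, was higher with sgKEAP1-2 under siNC (0.67, adjusted p = 0.0144). NR5A2, the CYP7A1 activator LRH-1, was too low to test, and NR1I3 and GPBAR1 were absent.

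Transporters divided by direction. ABCC2 and ABCC3, which export conjugates to bile and to blood and are established NRF2 targets, were higher in all 4 comparisons. ABCC3 rose from 33.0 ± 2.08 CPM with sgCtrl to 97.3 ± 8.79 and 104 ± 12.5 with the KEAP1 guides under siNC, a change of 1.56 and 1.64 log2 units. ABCC2 rose from 48.9 ± 3.49 to 107 ± 7.90 and 119 ± 15.0 CPM (1.13 and 1.27). ABCB4, which delivers phosphatidylcholine to bile, was lower in all 4, from 28.6 ± 5.96 to 16.6 ± 3.56 and 14.8 ± 0.966 CPM under siNC (-0.79 and -0.92). The sterol exporters ABCG5 (-0.74, sgKEAP1-1 under siNC) and ABCG8 (-1.50, sgKEAP1-2 under siTFEB/siTFE3) were lower in 1 comparison each. ABCB11, the bile salt export pump, and the uptake carriers SLC10A1, SLCO1B1 and SLCO1B3 were absent from the table.

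Of 13 further synthesis genes 8 were tested. CYP8B1, the 12-alpha-hydroxylase that directs synthesis to cholic acid, was lower in 3 comparisons at 5 to 36 reads per library. Its differences were -1.11 and -1.64 under siNC and -1.03 with sgKEAP1-1 under siTFEB/siTFE3, while -0.80 with sgKEAP1-2 did not pass (limma-voom adjusted p = 0.0709). The peroxisomal enzyme HSD17B4 was lower with sgKEAP1-1 under siNC (-0.59) and the peroxisomal thioesterase ACOT8 higher with sgKEAP1-2 (0.47). CYP7B1, CYP39A1, CYP46A1, CH25H and AKR1C4 were absent.

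The list held 12 genes grouped as raised by FXR, which leave out the FXR targets NR0B2 and SLC51B described above. Of the 9 that were tested OSGIN1 alone was higher, in all 4 comparisons. It went from 23.3 ± 3.14 CPM to 100.4 ± 25.5 and 119 ± 11.1 under siNC (2.07 and 2.34 log2 units). OSGIN1 is also an NRF2 target. APOA5 (-0.83, -0.85, -1.10 and -1.12) and FGB (-0.44, -0.41, -0.43 and -0.46) were lower in all 4, SULT2A1 in 2 (-0.85 with sgKEAP1-1 under siNC, -0.98 with sgKEAP1-2 under siTFEB/siTFE3) and KNG1 in 1 (-1.78, sgKEAP1-2 under siTFEB/siTFE3). SULT2A1, the bile acid sulfotransferase, was also the single list gene called after knockdown, with sgKEAP1-2 (-1.21, adjusted p = 0.0492). FETUB, CYP3A4 and APOC2 were absent.

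**Figure D4:**
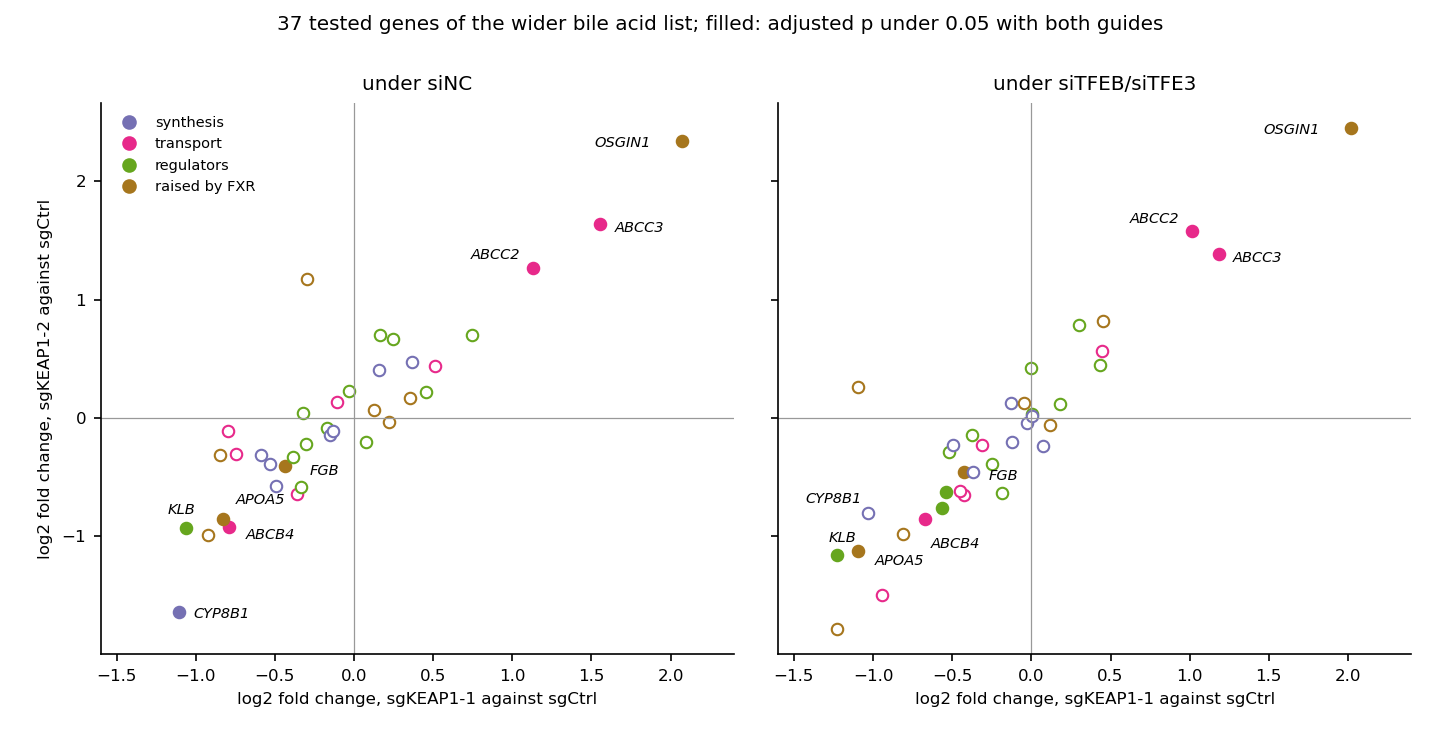
Log2 fold changes of the 37 tested list genes with sgKEAP1-1 (horizontal) and sgKEAP1-2 (vertical) against the same sgCtrl libraries, under siNC (left) and siTFEB/siTFE3 (right), where filled points passed with both guides. OSGIN1, ABCC2 and ABCC3 lie at the upper right and KLB, APOA5, ABCB4 and FGB at the lower left of both panels. Both axes share the control libraries.

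The genes whose 6 group means lay closest to those of the 3 called genes were found by the root mean square (RMS) distance of centred log2 CPM over 10537 candidate genes. For FGFR4 they were PPM1D (0.0211 log2 units), SLC35D1 (0.0336) and HHEX (0.039), where the spread of FGFR4 itself was 0.274. For AKR1D1 they were FDPS (0.0458), AGT (0.0505) and GJB1 (0.0529), with a spread of 0.326 for AKR1D1. For CYP27A1 they were GPR137 (0.0256), DEF8 (0.0314) and RITA1 (0.0319), with a spread of 0.101.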

How the data were processed

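QuantSeq libraries, which read the 3′ ends of mRNAs, were made by the authors and processed with Cutadapt 1.16, STAR 2.7.5b and featureCounts 1.6.3 per the labels. The genome is hg19 in the study's methods and hg38 in the processing notes. The annotation file, the strand setting and the filter behind the smallest row total of 15 reads are not given in the sources used here. The deposited values are raw counts per gene, without molecular identifiers.

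Rows with no gene ID (1414 of 13446, holding 1.35% to 2.57% of a library's reads) were left out, rows sharing an ID were summed, and IDs with identical counts in every library were kept as 1 feature. Library groups were taken from the labels. Counts were filtered with filterByExpr, TMM-scaled and fitted by voom in limma 3.58.1 (with edgeR 4.0.16 under R 4.3.3) as 6 group means over 24 libraries, with two-sided tests, Benjamini-Hochberg adjustment per comparison and a threshold of 0.05. The 12 comparisons were 4 of KEAP1 guides, 3 of knockdown, 2 between guides and 3 interactions. Alternatives were other scaling, filters, edgeR, DESeq2 1.42.0, library weights, the compared groups alone, a replicate block, a fold minimum and leaving out libraries. Scripts were tested on simulated data. Named genes were the 10 genes, list genes called in any KEAP1, interaction or knockdown comparison, and for each called gene the 3 nearest profiles at a mean of at least 10 counts. The values of 1 list gene that met this rule are not reported here. The members and lists were chosen with earlier results of these data known. Gene positions are from GENCODE on GRCh37, promoters from RefSeq.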

Additional observations from a re-analysis of the deposited data

Results flagged for a closer look

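In 3 of the 54 groups of 4 libraries examined for the 9 measured genes, 1 library lay far from the other libraries of its group. For independent groups the rule used flags about 1 in 20 by chance. All 3 flags were in replicate 1 under siTFEB/siTFE3, so they are not independent and that rate cannot be set against them. NR1H4 was at 44.5 CPM in replicate 1 of sgCtrl under siTFEB/siTFE3, while the other libraries were at 35.7 to 36.4. NR1H4 was at 36.7 CPM in replicate 1 of sgKEAP1-1 under siTFEB/siTFE3, while the other libraries were at 22.1 to 23.3. SLC27A5 was at 10.8 CPM, from 39 reads, in that same replicate 1 of sgKEAP1-1 under siTFEB/siTFE3, with the others at 7.52 to 7.76.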

How the results depend on the processing

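Over the single-gene results no alternative reversed a called direction, and 2778 values kept their side of the threshold, with 24 passing it, 40 losing it and 12 moving. Of the 7 genes, 1, 2, 2 and 2 were called in the KEAP1 comparisons (sgKEAP1-1 and sgKEAP1-2 under siNC, then under siTFEB/siTFE3). A minimum log2 change of 1 in either direction left 0 in each of these 4. edgeR's test gave 1 for sgKEAP1-2 under siNC and 1 for sgKEAP1-1 under siTFEB/siTFE3. For sgKEAP1-1 under siNC, library quality weights gave 2, as did leaving out both libraries that stand apart and leaving out all 6 libraries numbered 1, the last 2 chosen after seeing the data. NR1H4 was the gene added, and in each of these settings it was also called with both guides under siTFEB/siTFE3. For knockdown with sgKEAP1-2, leaving out all libraries numbered 1 gave 1. Why these counts moved was not tested. Leaving out 1 library at a time gave 0 to 1, 0 to 2, 0 to 3 and 2 to 3 genes in the KEAP1 comparisons and 0 in all others.

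Replicate numbers recur in every group, and libraries of 1 number share a name prefix across all 6 groups, whose meaning the labels do not give. Deviations of same-numbered libraries correlated above 0.1 in 10 of 15 pairs for number 1, and in 5, 2 and 3 of 15 for numbers 2, 3 and 4. Of 180 pairs with different numbers 17 did. The median correlation was 0.12, 0.04, 0.03 and 0.04 for numbers 1 to 4 and -0.02 for different numbers. For 15 of 24 libraries the highest mean correlation was with libraries of their own number. Same-numbered libraries were thus more alike than others, most of all those of number 1. As no label says what a number marks, the main fit does not use it. With the replicate block, 2 genes were called for sgKEAP1-1 under siNC, and 3, 3 and 2 in the other KEAP1 comparisons. The genes added were NR1H4 with sgKEAP1-1 under both siRNAs (adjusted p = 0.0208 and 0.00685) and AKR1D1 with sgKEAP1-2 under siNC (adjusted p = 0.0288), and no other call on the 7 genes changed. The share of all genes called with the block is not set beside these counts. Over the alternatives the number of all genes called varied widely, as given below.

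All genes called numbered 1218, 1641, 1170 and 2253 in the KEAP1 comparisons, 429 to 1775, 574 to 2470, 427 to 1991 and 743 to 2795 over the alternatives, and 2, 10 and 40 after knockdown (2 to 13, 1 to 52 and 11 to 109). Between the guides they numbered 0 and 1 (0 to 9 and 0 to 18). CYP7A1, BAAT and SLC51B had at most 10, 18 and 32 reads in any library of 3527000 reads or more, and a part of depth in their results was not tested.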
